A study of Mus musculus with 2 samples.

Results

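The genes described here encode the nuclear subunits and named assembly factors of respiratory complexes I, II, III and V. They were taken from the GENCODE M21 annotation of mouse build mm10 as the nuclear protein-coding genes whose symbol begins with Nduf, Sdha, Sdhb, Sdhc, Sdhd, Uqcr or Atp5. The rule uses symbols and no measured value, but it was set with earlier results of these data known. It gave 79 genes, annotated under 80 gene IDs, of 21911 nuclear protein-coding symbols: 46 for complex I, 8 for complex II, 8 for complex III and 17 for complex V. They lie on 19 chromosomes, and 38 of them have a single annotated start.

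Complexes I, II and III sit in the inner mitochondrial membrane and pass electrons from NADH and succinate to cytochrome c, and complexes I and III pump protons as they do so. Complex V, the ATP synthase, lets the protons flow back through a rotating ring and makes ATP. Skeletal muscle relies on this machinery for sustained work. Most subunits are encoded in the nucleus, and their promoters are textbook targets of the factors NRF1 and GABPA (also called NRF-2), with the oestrogen-related receptors (ERR) and YY1 as further known regulators.

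The data are DNase-seq of gastrocnemius, the large calf muscle, from male B6CASTF1/J mice aged 14 days. These animals are hybrids of a C57BL/6 and a CAST parent, and all sequences printed here are the C57BL/6J reference. The labels give 1 group of 2 biological replicates with no treatment and no contrast. Both replicates name the same donor entry, the label also carries the unexplained words "3x Males", and replicate 1 was sequenced on 2 instrument models, so the spread between the libraries may be technical and no test was made. DNase I cuts accessible DNA, a peak marks a stretch of frequent cutting, and a footprint is a short run of bases inside such a stretch that is cut less often.

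Values are given in the order replicate 1, replicate 2. The signal of a promoter is the authors' signal value for the strongest peak of the strict list (the shorter of the 2 peak lists of a library) within 1 kb of any annotated start. No source used here states how it was scaled and the read depth is unknown, so each gene was also ranked by percentile among all coding genes within a library, and the mean percentile ± SD over the libraries (n = 2) is given. A gene was called open when both libraries had such a peak. The strict lists held 82498 and 88198 peaks and the footprint lists 320456 and 384435 footprints. As a check of the tissue, 10 of 10 skeletal muscle markers were open, where 61.7% of all coding genes were. The counts were 3 of 3 for fibroblast, 2 of 3 for endothelial, 1 of 3 for leukocyte and 0 of 2 for adipocyte markers. The median percentile was 66.3 for the muscle and 61.4 for the fibroblast markers, so open promoters did not separate these cell types. The satellite cell marker Pax7 had a promoter peak in replicate 1 only.

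Of the 79 respiratory genes, 78 were open in both libraries, where 61.7% of all coding genes were. On the permissive lists, which hold 138117 and 139545 peaks, the count was also 78, against 65.7% of all coding genes. The 1 gene without a promoter peak on the strict lists was Sdhaf1. The median promoter signal of the 79 genes was 8.34 and 5.47, and the median of all open coding genes was 6.16 and 3.51. Of the respiratory genes, 60 in replicate 1 and 62 in replicate 2 lay above that median.

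By rank, the set stood above the open genes in general at the median. Its median percentile was 81.8, with an SD of 4.50 between the medians of the libraries, beside 69.4 for all open coding genes and 50.1 for all coding genes. A mean percentile of 90 or more was reached by 12 of the 79 genes, which is 15.2%, beside 9.49% of all and 15.4% of open coding genes, so the share at the top was near that of open genes. The complexes lay close together, with medians of 82.4 for complex I, 78.6 for complex II, 79.3 for complex III and 81.9 for complex V. These medians lay closer together than the medians of the 79 genes in the 2 libraries, 77.9 and 84.3. In bulk tissue, fewer nuclei with an open promoter and less opening per nucleus cannot be told apart.

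**Figure D1:**
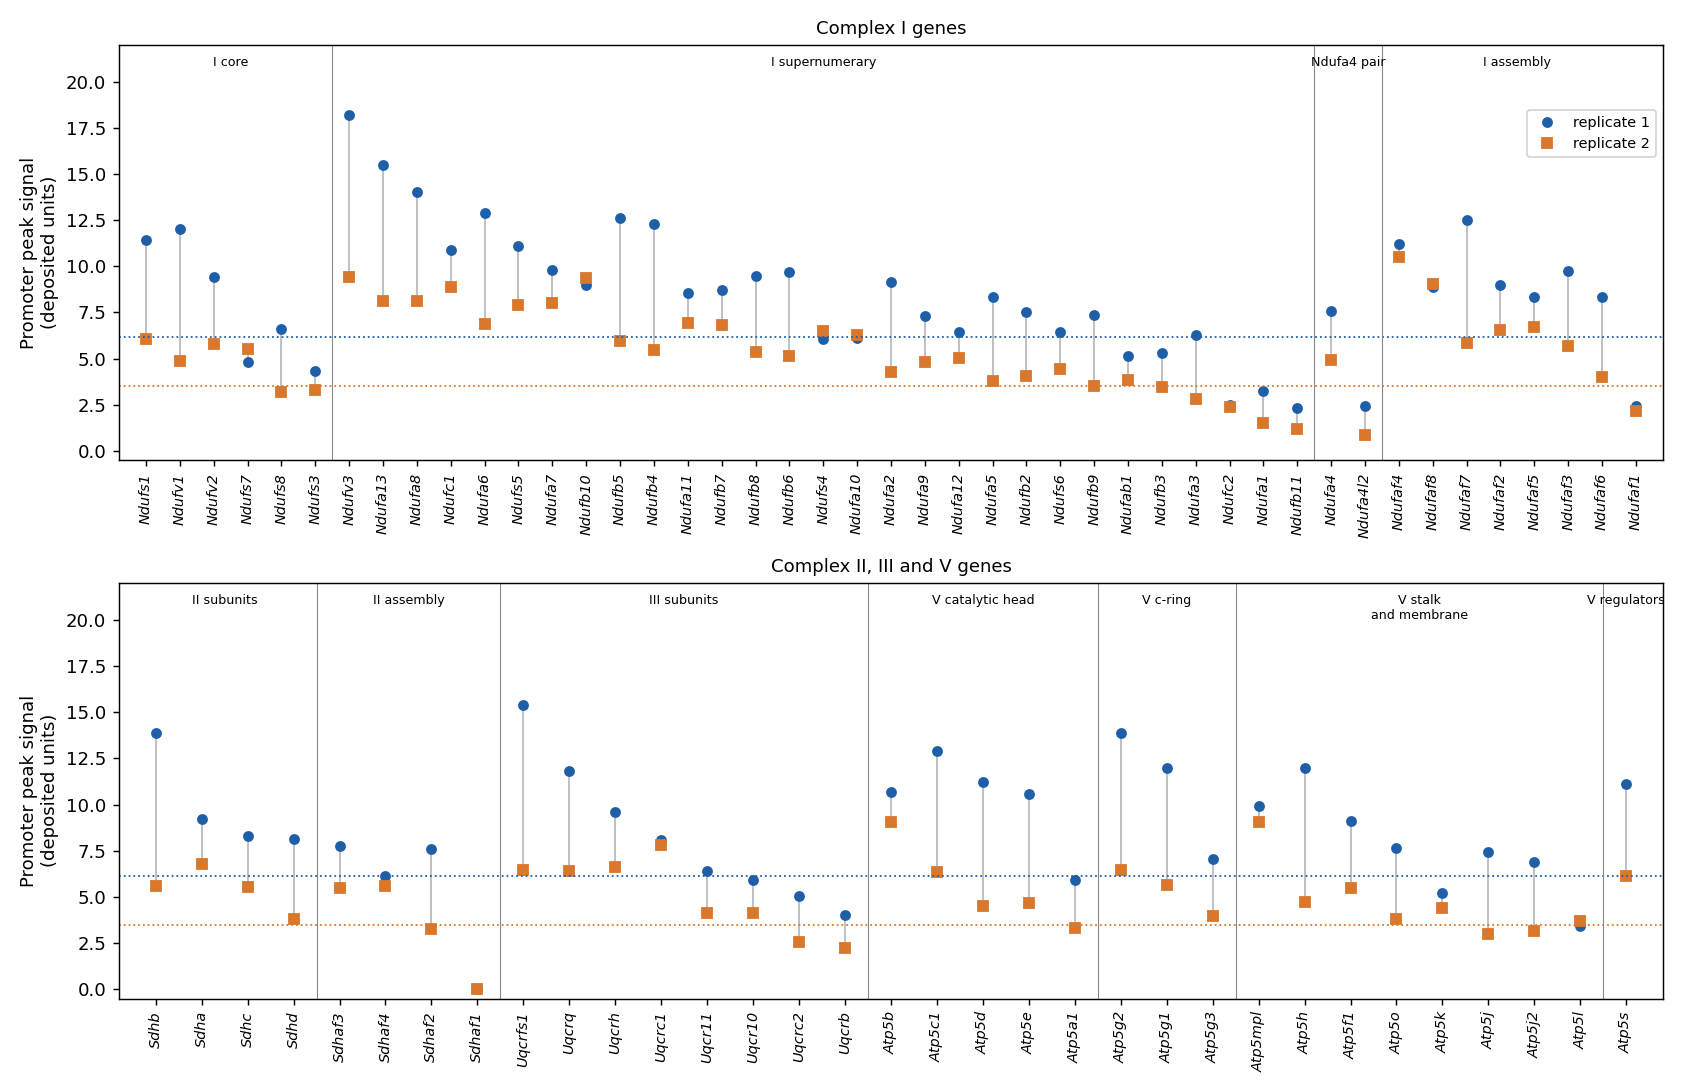
Signal of the strongest promoter peak (vertical axis, deposited units) for 78 of the 79 genes, with replicate 1 as blue circles, replicate 2 as orange squares and a grey line joining them, grouped by role and ordered by mean percentile. Dotted lines are the medians of all open coding genes, 6.16 in replicate 1 and 3.51 in replicate 2; Sdhaf1 is the gene at 0.

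The sequences of the promoter with the highest mean percentile in each complex are shown first, because the footprints in them recur in the results. By signal, other genes stood higher in 1 library, as Atp5g2 did over Atp5b in replicate 1, and Sdha over Sdhb and Uqcrc1 over Uqcrfs1 in replicate 2. The sequences run 5′ to 3′ on the strand of the gene, from build GRCm38.p6 (the mm10 sequence). Capitals mark bases inside footprints of both libraries. Each covers the strongest peaks of both libraries up to 50 bases after the most upstream start within them, and at most 300 bases.
Ndufv3, chr17:31519961-31520164, plus strand: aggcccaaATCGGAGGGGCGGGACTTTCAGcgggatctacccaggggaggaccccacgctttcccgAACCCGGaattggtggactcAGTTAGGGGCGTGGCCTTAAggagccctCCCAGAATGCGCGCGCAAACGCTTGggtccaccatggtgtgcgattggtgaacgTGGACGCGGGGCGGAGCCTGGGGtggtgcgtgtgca
Sdhb, chr4:140961121-140961252, plus strand: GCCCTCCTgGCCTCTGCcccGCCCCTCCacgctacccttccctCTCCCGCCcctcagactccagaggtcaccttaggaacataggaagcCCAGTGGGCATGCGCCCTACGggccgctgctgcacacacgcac
Uqcrfs1, chr13:30545313-30545460, minus strand: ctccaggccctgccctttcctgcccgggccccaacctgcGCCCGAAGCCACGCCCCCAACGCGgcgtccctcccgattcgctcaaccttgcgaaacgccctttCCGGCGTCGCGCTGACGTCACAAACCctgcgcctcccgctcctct
Atp5b, chr10:128083023-128083322, plus strand: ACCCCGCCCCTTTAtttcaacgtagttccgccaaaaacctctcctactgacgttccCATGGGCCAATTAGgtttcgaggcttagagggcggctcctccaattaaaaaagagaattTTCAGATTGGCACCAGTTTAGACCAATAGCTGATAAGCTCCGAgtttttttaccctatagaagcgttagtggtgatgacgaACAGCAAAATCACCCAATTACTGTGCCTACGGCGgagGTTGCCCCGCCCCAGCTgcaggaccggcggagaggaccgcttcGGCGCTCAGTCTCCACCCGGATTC
In Ndufv3, 97 of the 204 bases printed lay in footprints of both libraries, and the run GGGGCGG, which holds the GC box bound by SP1-type factors, appears in 2 of them. In Sdhb it was 53 of 132 bases, and the last footprint holds GCATGCGC, the NRF1 motif. In Uqcrfs1 it was 50 of 148 bases, with the CREB motif TGACGTCA in the last. In Atp5b it was 146 of 300 bases, with the box CCAAT, known to be bound by NF-Y, in several.

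The core of complex I is the set of subunits that carry the flavin, the iron-sulfur clusters and the quinone site. All 7 nuclear core genes named by the symbol rule were open, with a median percentile of 83.9. Ndufs1, which holds iron-sulfur clusters, had a promoter signal of 11.4 and 6.06 and a percentile of 87.5 ± 0.716, and Ndufv1, which binds NADH and the flavin, had 12.0 and 4.89 (84.4 ± 5.69). The lowest were Ndufs3 with 4.33 and 3.31 (64.2 ± 4.69) and Ndufs8 with 6.60 and 3.21 (68.8 ± 3.15). Ndufs3 and Ndufs8 thus ranked below Ndufs1 and Ndufv1 in both libraries.

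The supernumerary subunits of complex I surround the core and are needed for its assembly and stability. All 29 were open, with a median percentile of 79.6. Ndufv3, an accessory subunit of the NADH-binding module, had the highest percentile of all 79 genes, with a signal of 18.2 and 9.40 (98.1 ± 0.494). Ndufa13, also known as GRIM-19, followed with 15.5 and 8.14 (95.7 ± 0.950), and Ndufa8, a subunit facing the intermembrane space, with 14.0 and 8.10 (94.5 ± 2.48). Of the others, Ndufc1 with 10.9 and 8.89 (91.8 ± 8.56), Ndufa6 with 12.9 and 6.90 (91.4 ± 1.25) and Ndufs5 with 11.1 and 7.90 (90.9 ± 6.75) also passed a percentile of 90. Ndufb10, with 8.98 and 9.38 (89.2 ± 13.1), and Ndufa10, with 6.12 and 6.29 (79.1 ± 14.3), had nearly equal signals in both libraries and so ranked higher in replicate 2.

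The peak counted for Ndufa13 was not at its own start. It lay at chr8:69903161-69903440 in both libraries, centred at position -743 (negative positions are bases upstream of the start), and was also the strongest promoter peak of Yjefn3 and of Tssk6. A second peak was centred 867 bases inside the gene in replicate 1 (signal 8.51) and 877 bases inside it in replicate 2 (6.69). No strict peak lay between them, so with a window of 250 bases Ndufa13 had no promoter peak.

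The lowest supernumerary genes were the X-linked Ndufb11, with 2.33 and 1.21 (49.6 ± 1.35), and Ndufa1, with 3.27 and 1.50 (53.7 ± 2.71). Both encode small subunits of the membrane arm. They are the 2 respiratory genes on the X chromosome, of which these male animals have a single copy. The 436 open coding genes on X had median signals of 3.12 and 1.50, beside 6.35 and 3.61 for the 13074 open autosomal ones. Ndufb11 and Ndufa1 therefore stood near the level of X-linked promoters in general, and the part of chromosome copy number in these values was not tested. On autosomes, Ndufc2 was lowest among the supernumerary genes, with 2.51 and 2.37 (55.5 ± 5.57).

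Ndufa4 and Ndufa4l2 carry complex I names, but the Ndufa4 protein is now placed in complex IV, and Ndufa4l2 is known as its hypoxia-induced paralogue. The promoter signal of Ndufa4 was 7.58 and 4.90 (77.8 ± 3.71), and that of Ndufa4l2 was 2.44 and 0.885 (48.2 ± 4.21), the lowest percentile among the 78 open genes. The promoter of Ndufa4 had a CpG ratio (observed over expected CpG in 1001 bases around the most upstream start) of 0.725, and that of Ndufa4l2 had 0.186. The strongest site near Ndufa4l2 lay outside the promoter window, at chr10:127512921-127513120, centred at position -1946. It had a signal of 6.63 and 6.37, above the promoter peak in both libraries. RefSeq places the start of Ndufa4l2 5693 bases away from the GENCODE start, and with it added the promoter signal was 2.96 and 2.37 and the percentile 56.0.

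Assembly factors of complex I help build it and are absent from the finished enzyme. All 8 named by the symbol rule were open, with a median percentile of 84.9. Ndufaf4 led with 11.2 and 10.5 (92.9 ± 9.08), followed by Ndufaf8 with 8.89 and 9.06 (88.8 ± 13.1) and Ndufaf7, a methyltransferase, with 12.5 and 5.86 (88.2 ± 2.08). Ndufaf4 and Ndufaf8 ranked higher in replicate 2 than in replicate 1. At the other end were Ndufaf1 with 2.46 and 2.14 (54.3 ± 4.24) and Ndufaf6 with 8.34 and 4.02 (75.7 ± 3.04). Of the complex I assembly factors outside the symbol rule, 9 of 9 were open, among them Foxred1 with 16.8 and 7.98 and Tmem126b with 17.3 and 7.57.

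Complex II, succinate dehydrogenase, is the one respiratory complex without mitochondrially encoded subunits. Its 4 subunit genes were open with a median percentile of 83.7. Sdhb, the iron-sulfur subunit, had 13.9 and 5.57 (88.7 ± 5.35), and Sdha, the flavoprotein, had 9.24 and 6.76 (86.2 ± 7.62). The membrane anchors Sdhc, with 8.28 and 5.54 (81.2 ± 4.95), and Sdhd, with 8.14 and 3.80 (74.5 ± 3.83), stood below them in both libraries, Sdhc by only a small margin under Sdhb in replicate 2.

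The assembly factors of complex II differed. Sdhaf3 had 7.77 and 5.50 (80.1 ± 6.06), Sdhaf4 had 6.14 and 5.62 (77.2 ± 11.4) and Sdhaf2, needed to attach the flavin to Sdha, had 7.61 and 3.26 (71.2 ± 5.85). Sdhaf1, needed to insert iron-sulfur clusters into Sdhb, had no strict peak within 1 kb of its annotated start in either library. On the permissive lists it had none in replicate 1 and a peak of 0.294 in replicate 2, and the lowest false discovery rate of cutting listed in its window was 0.0211 in replicate 2, with no base listed in replicate 1.

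A strong peak nevertheless lay inside the Sdhaf1 gene. It was found at chr7:30322321-30322540 in replicate 1, with a signal of 13.9, and at chr7:30322341-30322560 in replicate 2, with 7.20. The RefSeq annotation of the same build places the Sdhaf1 start at position 30322375, 1520 bases from the GENCODE start and within both peaks. The peak also lies within 1 kb of a GENCODE start of another coding gene, so its signal cannot be assigned to Sdhaf1 alone. With RefSeq starts added to every gene, a choice made after the data were seen, 79 of 79 respiratory genes and 62.7% of all coding genes were open, and Sdhaf1 ranked at a percentile of 92.8. The sequence of that peak is shown because it holds the RefSeq start and lies outside the GENCODE window, with footprint bases of both libraries in capitals.
Sdhaf1, chr7:30322326-30322560, minus strand: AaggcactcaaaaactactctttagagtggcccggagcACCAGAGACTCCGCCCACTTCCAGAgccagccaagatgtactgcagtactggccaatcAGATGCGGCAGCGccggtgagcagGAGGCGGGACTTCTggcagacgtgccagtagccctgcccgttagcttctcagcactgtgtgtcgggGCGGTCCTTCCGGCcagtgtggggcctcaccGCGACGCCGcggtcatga
Of these 235 bases, 76 lay in footprints of both libraries. They lie outside the GENCODE window, so the footprint and motif counts given below for the respiratory genes leave them out.

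Complex III passes electrons from ubiquinol to cytochrome c. All 8 Uqcr genes were open, with a median percentile of 79.3. Uqcrfs1, the Rieske iron-sulfur protein, led with 15.4 and 6.45 (92.4 ± 3.41). The small subunits Uqcrq, with 11.8 and 6.43 (89.0 ± 1.35), and Uqcrh, the hinge protein, with 9.60 and 6.65 (86.6 ± 6.36), followed. The lowest were Uqcrb with 4.04 and 2.26 (58.9 ± 0.773) and the core protein gene Uqcrc2 with 5.04 and 2.55 (62.6 ± 2.27), both below the other 6 in each library. Of 7 complex III genes outside the symbol rule, 7 were open, including Cyc1, the cytochrome c1 subunit, with 5.83 and 2.05. Cycs, which encodes cytochrome c itself, had 17.1 and 10.3 and a percentile of 98.0.

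The catalytic head of complex V makes the ATP. All 5 head genes were open, with a median percentile of 81.9. Atp5b, the catalytic beta subunit, had 10.7 and 9.07 (91.6 ± 9.17), and Atp5c1, the gamma shaft, had 12.9 and 6.33 (percentiles 90.5 and 89.4 in the 2 libraries). Atp5d and Atp5e, the small subunits at the foot of the shaft, had 11.2 and 4.52 (81.9 ± 6.22) and 10.6 and 4.67 (81.8 ± 4.43). Atp5a1, the alpha subunit that alternates with beta in the head, had 5.90 and 3.34 (67.9 ± 0.198), lower than the other 4 in both libraries. The promoters of the alpha and beta genes, whose proteins are present in equal numbers, thus differed in rank.

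The c-ring is the rotor, and its subunit is encoded by Atp5g1, Atp5g2 and Atp5g3, whose mature proteins are the same and whose targeting peptides differ. Atp5g2 had 13.9 and 6.44 (91.2 ± 1.81), Atp5g1 had 12.0 and 5.65 (87.0 ± 2.10) and Atp5g3 had 7.07 and 3.99 (73.2 ± 0.266). The order was the same in both libraries, and Atp5g3 stood apart by more than the spread between libraries. The promoter sequences of these 3 genes are shown to compare what their footprints hold, with bases in footprints of both libraries in capitals.
Atp5g1, chr11:96075621-96075920, minus strand: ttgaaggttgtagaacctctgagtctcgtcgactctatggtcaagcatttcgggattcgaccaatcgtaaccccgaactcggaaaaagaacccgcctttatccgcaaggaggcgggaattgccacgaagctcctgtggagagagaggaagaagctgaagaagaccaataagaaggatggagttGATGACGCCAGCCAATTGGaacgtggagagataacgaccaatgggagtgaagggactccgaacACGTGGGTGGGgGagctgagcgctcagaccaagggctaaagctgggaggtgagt
Atp5g2, chr15:102671078-102671260, minus strand: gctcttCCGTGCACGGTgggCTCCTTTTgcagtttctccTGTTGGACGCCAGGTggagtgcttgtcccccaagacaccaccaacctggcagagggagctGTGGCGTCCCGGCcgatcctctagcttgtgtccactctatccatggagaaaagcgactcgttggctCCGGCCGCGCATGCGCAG
Atp5g3, chr2:73911277-73911440, minus strand: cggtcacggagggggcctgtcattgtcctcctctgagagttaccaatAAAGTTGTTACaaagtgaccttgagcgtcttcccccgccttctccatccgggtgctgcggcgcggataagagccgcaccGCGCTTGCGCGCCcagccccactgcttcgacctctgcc
The capitals came to 31 of 300 bases in Atp5g1, 65 of 183 in Atp5g2 and 24 of 164 in Atp5g3. The footprint of Atp5g1 holds CCAAT on both strands, and the last footprint of Atp5g2 holds the NRF1 motif on both strands. No match to any of the 8 motifs searched below, nor to CCAAT, lay in footprints of both libraries at Atp5g3.

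The stalk and membrane subunits of complex V hold the head in place and form the proton path. All 8 were open, with a median percentile of 72.2. Atp5mpl, a small proteolipid subunit, led with 9.91 and 9.07 (90.6 ± 10.6), followed by Atp5h, subunit d, with 12.0 and 4.71 (83.8 ± 6.73) and Atp5f1, subunit b, with 9.10 and 5.47 (82.3 ± 2.78). The lowest were Atp5l, subunit g, with 3.44 and 3.70 (percentiles 56.6 and 70.8) and Atp5j2, subunit f, with 6.92 and 3.17 (69.3 ± 4.28). Atp5s, named for subunit s, had 11.1 and 6.12 (87.3 ± 1.64).

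Gene groups with a like housekeeping role had similar shares of open promoters. Of 78 mitochondrial ribosomal protein genes 78 were open, with a median percentile of 74.8, and of 50 proteasome subunit genes 46 were, with 76.7. Of 16 complex IV subunit genes 15 were open, with 71.0. The medians of these groups and of the respiratory genes differed by amounts that were not tested. Cox4i2, known from lung, was the closed complex IV gene.

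For most respiratory genes, the ratio of signals between the 2 libraries lay within 2-fold of that of open genes in general. Over all open coding genes the signal in replicate 1 was 1.83 times that in replicate 2 at the median. Relative to that ratio, the respiratory genes had a median of 0.955 and ranged from 0.476 to 1.50. A relative ratio within 2-fold was seen for 77 of the 78 open genes, beside 96.3% of all open coding genes. Spearman's rho between the libraries was 0.712 across the 78 genes and 0.924 across all open coding genes. Genes of one library share its depth, so these are descriptions.

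The genes farthest toward replicate 2 were Ndufs7, a core subunit of complex I, at 0.476 (signal 4.83 and 5.54), Atp5l at 0.509 and Ndufs4, an accessory subunit, at 0.511 (6.09 and 6.51). Farthest toward replicate 1 were Ndufa4l2 at 1.50, Atp5h at 1.39 and Sdhb at 1.36. For Ndufs7 the strongest peaks of the libraries were at different places, chr10:80249301-80249540 in replicate 1 and chr10:80248941-80249260 in replicate 2. Each of these peaks was centred near a different one of its 2 annotated starts.

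**Figure D2:**
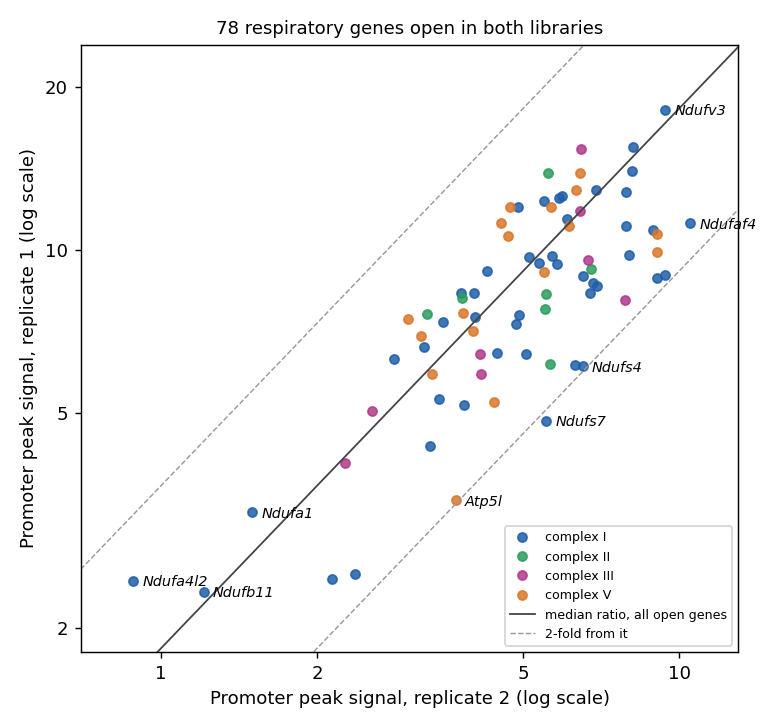
Promoter signal in replicate 1 against replicate 2, both on log scales, for the 78 respiratory genes open in both libraries, coloured by complex. The solid line is the median ratio of all open coding genes, 1.83, and the dashed lines lie 2-fold from it; Ndufs7 is the 1 gene past them.

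The strongest peak lay at the start in most cases. Its centre was within 100 bases of an annotated start for 66 genes in replicate 1 and 63 in replicate 2, and within 250 bases for 72 in each. The median position of the centre was -19.5 and -23.5, and the median width was 200 bases in both libraries. The CpG ratio around the most upstream start had a median of 0.729 over the 79 genes, beside 0.716 for open and 0.552 for all coding genes. Low values were seen at Sdhaf1 (0.0858), Ndufa4l2 (0.186) and Atp5j2 (0.219). A single strict peak was present for 48 and 54 genes, and the most was 5 in replicate 1 and 4 in replicate 2.

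The strongest peak was centred over 250 bases from every GENCODE start in at least 1 library for Ndufaf3, Ndufa13, Ndufa4, Uqcrh, Uqcrq, Atp5g1, Atp5f1 and Atp5j, and in both libraries for Ndufa13, Uqcrh, Atp5f1 and Atp5j, which each have a neighbouring start within 1 kb. Ndufaf3, Ndufa4, Uqcrq and Atp5g1 have no such neighbour. For Atp5f1 the centre was 738 and 768 bases inside the GENCODE gene, and at positions -98 and -68 from the RefSeq start. Atp5j, the coupling factor subunit, had 5 peaks in replicate 1 and 4 in replicate 2. The strongest was 562 and 542 bases inside the gene, near the start of the opposite-strand gene Gabpa, while the peak at the start of Atp5j itself had 6.54 and 2.60. Uqcrh had its strongest peak at positions -380 and -350, and the peak at its start had 5.90 and 3.02. RefSeq starts were found for 79 of the 79 genes and lay within 100 bases of a GENCODE start for 69.

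Many of these promoters are shared with a neighbour. Another coding gene started within 1 kb of a start for 31 of the 79 genes, where 12.2% of all coding genes had such a neighbour. Among open coding genes, 2428 of 13514 had one. Mitochondrial ribosomal protein genes had one about as often, 33 of 78, so sharing was not particular to the respiratory genes. The counts were lower for proteasome subunit genes, 12 of 50, and complex IV subunit genes, 1 of 16. For all 31 respiratory genes, at least 1 of the neighbours was on the opposite strand. An opposite-strand neighbour was present for 10.5% of all and 16.1% of open coding genes, and for 32 of the 78 mitochondrial ribosomal protein genes. There were 32 pairs, 28 of them with starts within 200 bases of each other, and in 31 pairs both genes had the same strongest peak in both libraries, so a value in such a pair cannot be assigned to one gene. The exception was Atp5a1 with Haus1, whose starts are 70 bases apart and whose signals were 5.90 and 3.34 for Atp5a1 and 7.58 and 4.54 for Haus1.

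Some pairs are named here, picked after they had been seen. Ndufb5 overlapped Mrpl47 and Ndufs6 overlapped Mrpl36, each on opposite strands, and both partners are mitochondrial ribosomal protein genes. Sdhd lay head to head with Timm8b, an import factor of the intermembrane space, without overlap. Ndufs1 and the elongation factor gene Eef1b2 started 3 bases apart, as did Ndufb11 and Rbm10, and Ndufa7 and the ribosomal protein gene Rps28 10 bases apart. Atp5j and Gabpa, which encodes the DNA-binding subunit of GABP, started 379 bases apart. The median percentile was 82.3 for the 31 genes with a neighbour and 81.0 for the 48 without.

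Footprints per promoter were as many at the median as over open genes in general. At least 1 footprint within 1 kb of a start was present in both libraries for 78 of the 79 genes, beside 64.4% of all and 99.5% of open coding genes, with Sdhaf1 again the exception. In all there were 589 and 667 footprints, a median of 7 and 8 per gene, and the medians over all open coding genes were also 7 and 8. They had a median length of 13 bases, and 54.7% and 50.5% had their centre within 100 bases of a start. The most in one promoter of replicate 1 was 19, at Ndufa13 and at Atp5j.

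**Figure D3:**
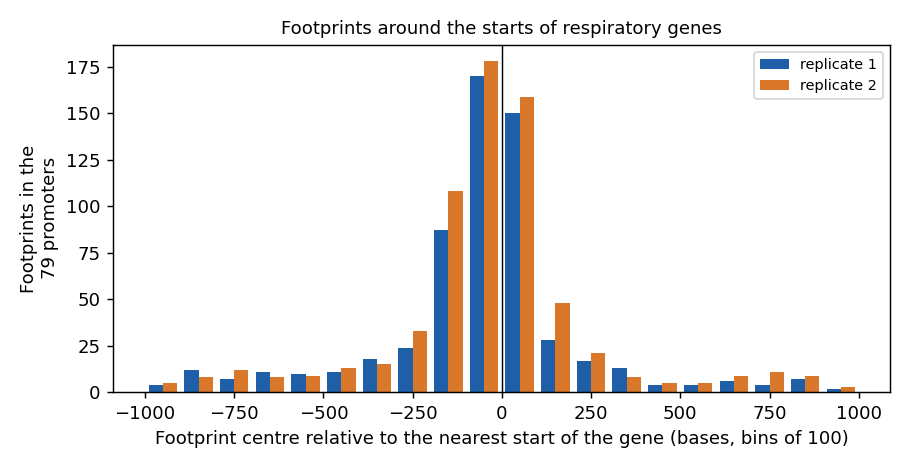
Number of footprints in the promoter windows of the 79 genes (vertical axis) by the distance of their centre from the nearest start (horizontal axis, bins of 100 bases, upstream to the left), for replicate 1 in blue and replicate 2 in orange. In both libraries the 2 bins next to the start hold the most, 170 and 150 of 589 footprints in replicate 1 and 178 and 159 of 667 in replicate 2.

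A set of 8 short motifs of factors known from respiratory or muscle genes were searched on both strands, and a match counted when it lay wholly inside footprint bases of both libraries. NRF1 (GCATGCGC) matched in 12 of the 79 genes, which is 15.2%, beside 3.39% of all coding genes and 5.48% of open ones. GABPA (CCGGAAG) matched in 6, which is 7.59%, beside 2.48% of all and 4.01% of open coding genes. CREB (TGACGTCA) matched in 4, at Atp5d, Ndufa10, Ndufb2 and Uqcrfs1, which is 5.06%, beside 2.02% of all and 3.27% of open coding genes. SP1 (GGGCGG) matched in 29, which is 36.7%, beside 28.1% of all and 45.4% of open coding genes.

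The remaining motifs were rare. YY1 (AAGATGG) matched in 1 gene, Uqcrh, beside 0.630% of all and 1.02% of open coding genes. ERR (AAGGTCA) matched in 1, Ndufs1, beside 0.123% of all and 0.20% of open coding genes. The E-box CAGCTG of the MyoD family matched in 1, Ndufa11, beside 1.36% of all and 2.19% of open coding genes, and MEF2 (TATTTTTA) in 0, beside 0.0137% of all coding genes. These counts move with a single library: without replicate 1 YY1 matched in 3 genes, ERR in 2 and the E-box in 4, and without replicate 2 YY1 matched in 1, ERR in 3 and the E-box in 2. Any of the 8 motifs was present in 42 of the 79 genes, which is 53.2%, beside 32.7% of all and 52.8% of open coding genes. Matches to 3 kinds at once were found in 3 genes, which were Sdhb with GABPA, NRF1 and SP1, Uqcrh with GABPA, YY1 and SP1, and Ndufa11 with NRF1, SP1 and the E-box. The box CCAAT (NF-Y), searched for after the sequences had been seen, matched in 9 genes, beside 5.91% of all and 9.56% of open coding genes, and Atp5b held 4 matches.

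**Figure D4:**
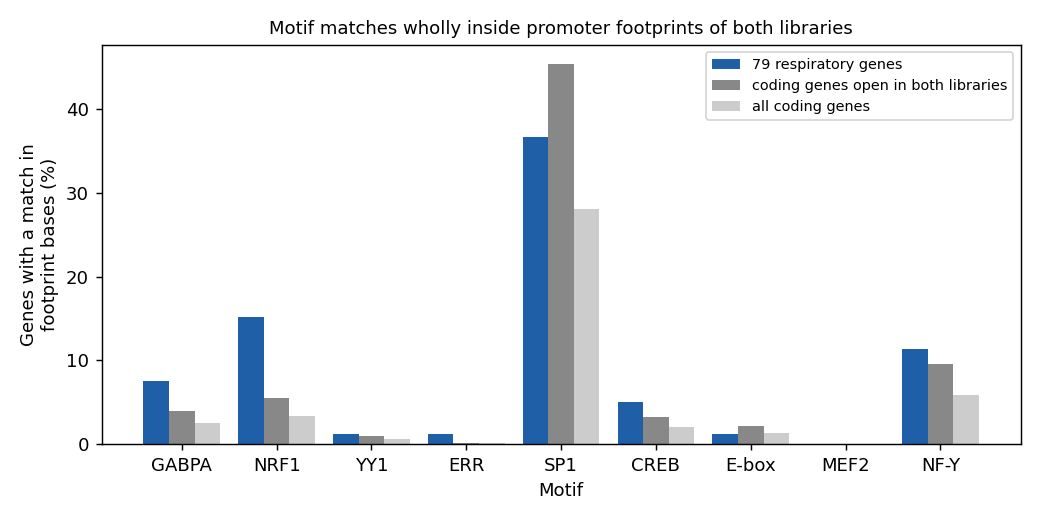
Share of genes (vertical axis, %) with a match to each motif wholly inside promoter footprints of both libraries, for the 79 respiratory genes (blue), coding genes open in both libraries (dark grey) and all coding genes (light grey). NRF1 stands at 15.2% against 3.39% of all coding genes, while SP1 stands at 36.7% between all (28.1%) and open (45.4%) coding genes.

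The NRF1 sites are shown because this motif had the widest gap to the background in percentage points among the 8. There are 13 sites in 12 genes, each printed as 30 bases on the strand of the gene with the motif in capitals. A run of 10 capitals is a palindrome that matches on both strands, as in 7 of the 13.
Atp5g2, chr15:102671069-102671098, minus strand: gctccggccGCGCATGCGCagagccttccc
Atp5k, chr5:108434428-108434457, minus strand: tcactgcggcGCATGCGCctttctggcttc
Atp5l, chr9:44920963-44920992, minus strand: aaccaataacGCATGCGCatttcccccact
Ndufa11, chr17:56717691-56717720, plus strand: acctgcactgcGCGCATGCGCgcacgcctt
Ndufa13, chr8:69903320-69903349, minus strand: atcgaggatGCGCATGCGCtctccagcaat
Ndufa8, chr2:36049327-36049356, minus strand: cgctggagacGCATGCGCagatggtaccgg
Ndufaf4, chr4:24897959-24897988, plus strand: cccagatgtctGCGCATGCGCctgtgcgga
Ndufaf4, chr4:24898072-24898101, plus strand: ggcccctggtgtGCGCATGCtccgtgcgta
Ndufaf5, chr2:140170651-140170680, plus strand: tagtcccgttgGCGCATGCGCctaatagaa
Ndufs8, chr19:3912521-3912550, minus strand: caccctcagGCGCATGCGCtgcctcgccgg
Sdhb, chr4:140961205-140961234, plus strand: gaagcccagtggGCATGCGCcctacgggcc
Uqcr11, chr10:80406806-80406835, minus strand: tcgccttcacGCATGCGCtatacgtctgca
Uqcrc1, chr9:108936667-108936696, plus strand: gactccgctctGCGCATGCGCagcgcggct
All 4 complexes were represented, and 10 of the 13 sites lay within 100 bases of a start. In Ndufaf4, 2 separate sites were in footprints. The site of Ndufa13 lies in the peak it shares with Yjefn3 and Tssk6. In all, 16 genes held the NRF1 motif in the promoter window, and in 14 of them a match touched footprints of both libraries by at least 1 base. The 12 genes had a median percentile of 85.9 and the other 67, among them Sdhaf1 without a footprint, one of 80.1. A match counted only inside called footprints, which come from the same cutting as the peaks. The 2 medians are therefore not independent of how the 12 genes were picked, and their difference was not tested.

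The GABPA sites are shown for 5 genes in the same way. They carry the ETS core, which reads CCGGAAG on one strand and CTTCCGG on the other.
Atp5j, chr16:84835019-84835048, minus strand: agctgagggacCCGGAAGcacttaccctcc
Ndufb9, chr15:58933773-58933802, plus strand: cacaaccgcccgCTTCCGGgttcccggcag
Ndufs1, chr1:63176820-63176849, minus strand: ggcctcggctaCTTCCGGcggaactgcagg
Sdhb, chr4:140961265-140961294, plus strand: ggctcggagaaaCCGGAAGcggccttccac
Uqcrh, chr4:116075062-116075091, minus strand: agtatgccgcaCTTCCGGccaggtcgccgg
At Atp5j the site lies in the peak near the start of Gabpa itself. At Sdhb the GABPA site centred 77 bases after the start followed the NRF1 site printed above. The other counted GABPA match was at Atp5a1, at position -11. The Sdhaf1 peak printed earlier also holds CTTCCGG in capitals, but it lies outside the GENCODE window and was not counted.

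The same letters were counted in the RefSeq promoters of 300 bases (250 before to 50 after the start), footprints aside, for 70 promoters of 65 respiratory genes and 20150 promoters in all. GABPA was present in 25.7% beside 11.9% of all, NRF1 in 15.7% beside 3.65%, YY1 in 14.3% beside 6.30% and ERR in 11.4% beside 3.97%. SP1 was present in 45.7% beside 47.8%, CREB in 5.71% beside 2.31%, the E-box in 7.14% beside 15.7% and MEF2 in 0% beside 2.06%. The shares of NRF1, GABPA, YY1, ERR and CREB were above those of all coding genes by both counts, those of YY1 and ERR in footprints resting on 1 gene each.

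The factors themselves had open promoters. Of 8 regulator genes 8 were open. Esrra, which encodes ERR alpha, had 26.7 and 10.1 (percentile 99.5), Yy1 had 18.4 and 7.49 (96.2), Nrf1 had 10.1 and 4.48 (80.3) and Gabpa had 7.44 and 2.99 (69.7), the peak shared with Atp5j. Ppargc1a, the coactivator PGC-1 alpha, was lowest with 1.03 and 0.555 (41.2).

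A distal region was one with peaks of both libraries, outside every promoter window and within 50 kb of a start. At least 1 was present for 69 of the 79 genes, which is 87.3%, beside 73.4% of all and 85.6% of open coding genes. The mean was 3.27 per gene, beside 2.77 for all coding genes and 3.39 for open ones, and 10 genes had none, among them Ndufaf4 and Atp5g1. The median was 3 for the respiratory genes and also for open coding genes, and 2 for all coding genes. At least 5 were counted for 23 genes, 29.1% beside 22.5% of all coding genes, and the share among open coding genes was not counted.

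Of the 258 regions, 84 had the respiratory gene as the nearest coding gene, and 23 lay inside it. Their median signal was 1.51 and 1.12, beside 1.28 and 0.936 for the 44385 distal regions of the genome. Atp5d had the most, 16, but none of them was nearest to Atp5d. In replicate 1 its strongest was chr10:80159821-80160140, with 15.9 and 6.68, nearest to Cirbp. In replicate 2 it was chr10:80165081-80165300, with 9.88 and 7.42, also nearest to Cirbp. A further strong one, chr10:80149361-80149660, with 13.7 and 5.01, was nearest to Midn. Ndufa4l2 had 10, of which 6 were nearest to it. Atp5a1, Atp5g2 and Sdhb had 9 each, and for Atp5g2 7 of them were nearest to that gene, with signals of 0.552 to 1.51 in replicate 1.

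**Figure D5:**
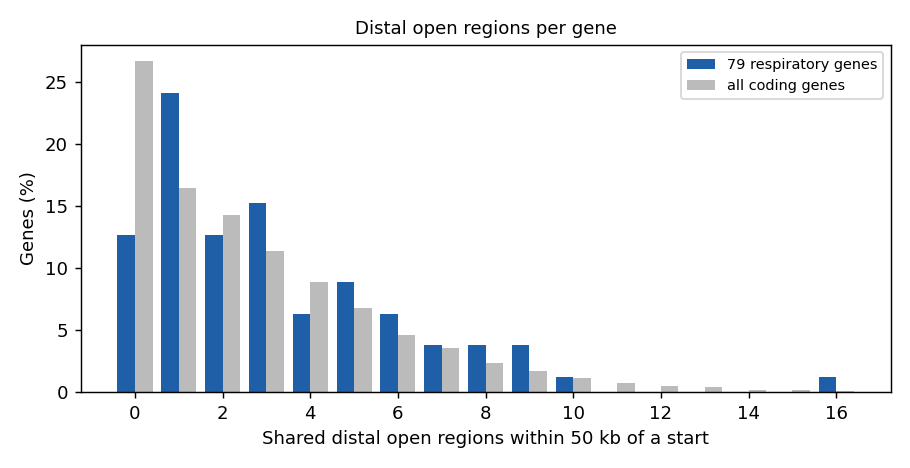
Share of genes (vertical axis, %) by the number of distal open regions found in both libraries within 50 kb of a start (horizontal axis), for the 79 respiratory genes in blue and all coding genes in grey, of which those with more than 16 are not drawn. The gene at 16 is Atp5d, and 10 respiratory genes stand at 0.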

How the data were processed

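DNase-seq peak lists, footprint lists and cut-rate tracks of 2 gastrocnemius libraries on mm10 were used as deposited. Peak signal is the authors' value, made from that library alone per the deposited file listings. How it was scaled, the aligner and the callers are not stated there or in the labels. The footprint threshold (a false discovery rate of 0.01) and the per-base false discovery rates, here treated as p-values, are the authors' own.

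Starts came from GENCODE M21. For 27 symbols, several gene IDs on the same chromosome and strand were joined, a choice made after the data were seen. Percentiles, overlaps and motif matches were computed with Python 3.11.15, pandas 2.3.3, numpy 2.4.6, bedtools 2.31.1 and samtools 1.23.1, and overlaps were tested on simulated peaks. Sequences are from RefSeq build GRCm38.p6. No test was made, since there is 1 group.

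The members and lists were chosen with earlier results of these data known. Named genes are, per role, the 3 highest and 2 lowest open promoters, genes without a promoter peak, the isoform sets, the 5 genes with most distal regions, the 3 farthest library ratios each way and genes next to a listed regulator; others were named after their values were seen. Some genes that the rule or the marker lists select are not reported here; they remain in the counts and medians. Alternatives were other windows, the permissive lists, other starts, summed peaks, peaks above the median, stricter overlap and each library alone.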

Additional observations from a re-analysis of the deposited data

How the results depend on the processing

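The count of genes with a promoter peak in both libraries was 76 with windows of 250 bases, 79 with windows of 2500 bases or RefSeq starts added, and 78 under the other alternatives, including either library alone. The median percentile ranged from 77.6 with summed peaks to 84.3 without replicate 1. The mean number of distal regions moved with its definition: it was 1.41 within 20 kb, 6.38 within 100 kb, 5.06 on the permissive lists, 2.92 with a reciprocal overlap of 50%, and 4.24 to 4.57 when either library was left out and the other used alone. Windows of another size and a single library change the count by construction. Motif matches touching a footprint by 1 base raised the count of genes with any motif from 42 to 56, beside 42.3% of all and 68.2% of open coding genes. SP1 went from 29 to 44 (55.7%, beside 36.3% of all and 58.6% of open coding genes). In the same order, GABPA went from 6 to 12 (15.2%, beside 6.28% and 10.2%) and YY1 from 1 to 6 (7.59%, beside 2.07% and 3.36%). The E-box went from 1 to 3 (3.80%, beside 3.18% and 5.11%) and ERR from 1 to 2 (2.53%, beside 0.292% and 0.474%). NRF1 went from 12 to 14 (17.7%, beside 3.85% and 6.23%), while CREB kept a count of 4 (5.06%, beside 2.49% and 4.00%) and MEF2 a count of 0. No paired analysis was possible because there is 1 group. Read depth is unknown, and with 2 libraries of 1 group only differences wider than their spread can be described.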
